A study of Mus musculus with 14 samples.

Results

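Glucocorticoid-induced genes were followed here as a list of 36 genes that are widely used as readouts of glucocorticoid signalling, taken by gene symbol. The list was chosen with earlier results of these data known, so its counts beside those of all genes are descriptions and no test of the list. The arrays carried 64 probe sets for 33 of the 36 genes, out of 22626 probe sets and 12393 genes in all, and each gene was represented by its probe set with the highest mean log2 intensity. No probe set was annotated to Arrdc2, Nedd9 or Fam107a. Of the 33 genes, 24 passed a filter on low intensity and were tested, and 9 (Cebpd, Cebpb, Zbtb16, Gadd45g, Irs2, Map3k6, Pdk4, Plin4 and Lcn2) lay below it. The filter separated Cebpd, with a mean log2 intensity of 7.64, from Klf15, with 7.82.

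All animals carried 1 copy of the T9H translocation (T9H/+), and their brain RNA was hybridised to 14 Affymetrix 430A arrays. PatDp7 mice carried a duplication of proximal chromosome 7 of paternal origin together with one of proximal chromosome 15 of maternal origin, and MatDp7 mice carried the reverse. No group without these duplications was analysed here, so all comparisons are between or within duplication carriers. Each duplication was represented by 1 array of 13.5 dpc brain (days post coitum), 2 arrays of 15.5 dpc brain, 2 of neonatal cortex and 2 of neonatal cerebellum. The labels call the duplicates biological but do not say how many animals each array represents, so p-values measure the spread between arrays. Hif3a, Sult1a1 and Pnpla2 lie on chromosome 7, and no listed gene lies on chromosome 15. Only the proximal part of chromosome 7 is duplicated, and the positions of these genes were not compared with it.

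Glucocorticoids act through the glucocorticoid receptor, a transcription factor encoded by Nr3c1 that waits in the cytoplasm in a complex with Hsp90 chaperones and the immunophilins Fkbp4 and Fkbp5. Bound by hormone, it enters the nucleus and binds paired half-sites in DNA, raising transcription of genes that include Fkbp5 itself, which lowers the receptor's affinity for hormone. In the developing brain glucocorticoids are known for advancing the maturation of neurons and glia. Most of the listed genes also answer to other signals, such as metals for the metallothioneins and thyroid hormone for Klf9.

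Promoter windows were available for 33 of the 36 genes, as 300 bases from 250 before to 50 after the transcription start in RefSeq's GRCm38.p6 annotation. The receptor's element, searched on both strands as the half-site AGAACA followed after 3 bases by TGTTCT, was in 1 of the 6 Sgk1 windows and in no window of another listed gene, against 0.00913% of all 32851 windows. The half-site alone, AGAACA or TGTTCT, was in windows of 5 of the 33 genes (Bcl6, Fam107a, Sgk1, Sult1a1 and Tsc22d3), or 8 of their 47 windows, and in 19% of all windows. The Sgk1 window is shown because it held the complete element, which starts 189 bases upstream of the start site and is in capitals (chr10:21993640-21993939, plus strand).
Sgk1: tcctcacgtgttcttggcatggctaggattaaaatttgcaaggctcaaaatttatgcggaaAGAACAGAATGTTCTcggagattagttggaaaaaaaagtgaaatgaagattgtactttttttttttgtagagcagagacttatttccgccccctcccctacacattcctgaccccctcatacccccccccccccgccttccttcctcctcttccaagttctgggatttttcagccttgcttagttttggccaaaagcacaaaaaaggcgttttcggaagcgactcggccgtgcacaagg

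The windows of the metallothionein genes Mt1 and Mt2, which neighbour each other on chromosome 8 and moved together with age, are shown for a second motif, the core of the metal response element. It was searched on both strands as TGCACNC or TGCGCNC and occurred in 25.7% of all windows and in 16 of the 47 windows of listed genes. Mt1 (chr8:94178839-94179138, plus strand) held 3 matches and Mt2 (chr8:94172368-94172667, plus strand) held 4, in capitals. A match is a description of letters only, and binding was not measured in this study.
Mt1: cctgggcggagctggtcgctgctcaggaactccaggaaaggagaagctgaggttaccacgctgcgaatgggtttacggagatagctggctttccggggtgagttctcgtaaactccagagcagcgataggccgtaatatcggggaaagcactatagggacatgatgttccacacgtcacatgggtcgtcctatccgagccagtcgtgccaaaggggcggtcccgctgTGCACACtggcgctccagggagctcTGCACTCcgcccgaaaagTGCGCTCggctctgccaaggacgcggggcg
Mt2: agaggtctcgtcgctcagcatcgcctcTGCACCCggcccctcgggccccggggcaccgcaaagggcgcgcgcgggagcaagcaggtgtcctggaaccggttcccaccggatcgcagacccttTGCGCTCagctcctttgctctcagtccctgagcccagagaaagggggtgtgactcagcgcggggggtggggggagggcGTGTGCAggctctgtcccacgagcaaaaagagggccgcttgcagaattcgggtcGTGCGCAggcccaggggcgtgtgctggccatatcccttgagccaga

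Values below are MAS5 signals, linear intensities that the authors had already scaled between arrays, and they are compared for 1 probe set across arrays, never between probe sets. Pairs of values are replicate 1 and replicate 2. Differences are on the log2 scale after a constant of 52.0 was added to every intensity, which shrinks differences of dim probe sets. A difference is called where the Benjamini-Hochberg adjusted p over all 13576 tested probe sets (8156 genes) was under 0.05 in limma. Regional markers were checked against the dissection labels. The cortical neuron gene Neurod6 was higher in cortex than in cerebellum by 2.61 ± 0.265 (SE, adjusted p = 0.0037), and the cerebellar genes En2 (-2.11, adjusted p = 0.0123) and Barhl1 (-1.75, adjusted p = 0.0289) were lower in cortex. The 3 other tested cerebellar markers, Atoh1 (-0.69), Zic1 (0.10) and Calb1 (0.16), were not called. Same-numbered arrays also shared features. Every array numbered 1 of neonatal and 15.5 dpc tissue had Xist, the transcript that silences 1 X chromosome in females, between 198 and 437 and the Y-linked gene Uty between 174 and 319, and every array numbered 2 had Xist between 2882 and 5323 and Uty between 29.1 and 58.8.

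The first comparison asked how the genes differ between neonatal brain regions and 15.5 dpc brain. Klf9, Klf15, Mt1, Mt2, Pik3r1 and Cdkn1a were higher in neonatal tissue, and no tested member was called lower. These are 6 of 24 tested members, where 4.01% of all tested genes were called higher and 7.32% lower. The median difference of the 24 was 0.297, against -0.0247 over all tested genes. By role, 2 of 6 transcription factors, 1 of 7 signalling genes, 1 of 5 growth-arrest and stress genes and 2 of 6 genes of metabolism and metal binding rose. Age, brain part and dissection differ together in this comparison, and in bulk tissue fewer cells of a type and less RNA per cell cannot be told apart. The fit treated the neonatal arrays as independent of each other. Same-numbered arrays of different neonatal groups deviated together from their group means, with correlations of 0.710 to 0.816, and the standard errors and p-values take no account of this.

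Klf9, a Krüppel-like zinc-finger repressor known for its part in neuronal maturation, had the largest difference of the 24. It read 1183 and 684 in PatDp7 cortex, 2278 and 680 in MatDp7 cortex, 786 and 592 in PatDp7 cerebellum and 2429 and 677 in MatDp7 cerebellum, against 241 and 30.6 in PatDp7 and 197 and 17.6 in MatDp7 brain at 15.5 dpc. All 8 neonatal arrays lay above all 4 arrays of 15.5 dpc, and at both ages replicate 1 was the higher array of each pair. The difference was 2.88 ± 0.532 (SE, adjusted p = 0.0150), and it was 2.53 within arrays numbered 1 and 3.23 within arrays numbered 2. The 2 other Klf9 probe sets that passed the filter were also called higher, by 2.50 (adjusted p = 0.0110) and 1.41 (adjusted p = 0.0099). Klf9 was below the neonatal range on the 13.5 dpc arrays too, with 176 in PatDp7 and 227 in MatDp7 brain.

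Klf15, a Krüppel-like factor that controls amino-acid and glucose metabolism, was called in both age comparisons. At 13.5 dpc it read 14.5 in PatDp7 and 18.7 in MatDp7 brain, at 15.5 dpc 170 and 140 in PatDp7 and 200 and 138 in MatDp7 brain, and in neonates 112 and 175 in PatDp7 cortex, 300 and 400 in MatDp7 cortex, 245 and 218 in PatDp7 cerebellum and 424 and 371 in MatDp7 cerebellum. Both 13.5 dpc arrays lay far below the rest, while in PatDp7 cortex 1 array lay below the 15.5 dpc arrays and the other among them. Neonatal tissue exceeded 15.5 dpc brain by 0.57 ± 0.156 (adjusted p = 0.0485), a value next to the threshold. Per1, a repressor of the circadian clock that glucocorticoids induce directly, had 400 to 684 (median 502) on the 8 neonatal arrays, against 279, 329, 351 and 400 at 15.5 dpc, and its difference of 0.56 ± 0.160 missed the threshold (adjusted p = 0.0547). Klf2, Bcl6 and Hif3a differed by 0.25, 0.29 and -0.11, with adjusted p between 0.288 and 0.790.

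Among signalling genes, Pik3r1, the regulatory subunit of phosphoinositide 3-kinase, was called. It read 845 and 1053 in PatDp7 cortex, 805 and 940 in MatDp7 cortex, 635 and 808 in PatDp7 cerebellum and 763 and 876 in MatDp7 cerebellum, against 482 and 321 in PatDp7 and 409 and 488 in MatDp7 brain at 15.5 dpc. The groups did not overlap, the difference was 0.91 ± 0.149 (adjusted p = 0.0101), and the 2 other probe sets of the gene were called too, at 1.33 and 1.45. Sgk1, a kinase that regulates ion transport, had 361 and 474 in PatDp7 cortex, 387 and 838 in MatDp7 cortex, 286 and 485 in PatDp7 cerebellum and 406 and 697 in MatDp7 cerebellum, against 234 and 263 in PatDp7 and 293 and 312 in MatDp7 brain at 15.5 dpc. Its ranges overlapped, and the difference of 0.67 ± 0.231 was not called (adjusted p = 0.0893).

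The most used markers of receptor activity gave no call. Fkbp5 read 1303 and 1184 in PatDp7 cortex, 972 and 973 in MatDp7 cortex, 741 and 952 in PatDp7 cerebellum and 1327 and 1380 in MatDp7 cerebellum, against 914 and 979 in PatDp7 and 883 and 1065 in MatDp7 brain at 15.5 dpc. Its difference was 0.17 ± 0.123, with a 95% interval of -0.11 to 0.45. Tsc22d3, an X-linked gene that encodes the leucine zipper protein GILZ, read 235 and 900 in PatDp7 cortex, 412 and 1105 in MatDp7 cortex, 414 and 1009 in PatDp7 cerebellum and 1037 and 1495 in MatDp7 cerebellum, against 911 and 992 in PatDp7 and 846 and 1122 in MatDp7 brain at 15.5 dpc. On this brightest Tsc22d3 set replicate 1 was the lower array in every replicated group. Its age difference was -0.87 within number 1 and 0.07 within number 2. Another tested set of the gene gave -0.75 and 0.35 and a further one 0.13 and 0.41, and neither had replicate 1 lower in every group. The phosphatase Dusp1 (0.30), the NF-kappaB inhibitor Nfkbia (0.30) and the receptor feedback inhibitor Errfi1 (0.25) also passed no threshold, with adjusted p between 0.212 and 0.236.

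The metallothioneins, small proteins that bind zinc and copper, rose together. Mt1 had 1384 and 1559 in PatDp7 cortex, 1549 and 2906 in MatDp7 cortex, 1660 and 2181 in PatDp7 cerebellum and 2139 and 3509 in MatDp7 cerebellum, against 741 and 914 in PatDp7 and 1103 and 575 in MatDp7 brain at 15.5 dpc. Mt2 had 1430 and 1435 in PatDp7 cortex, 1835 and 2980 in MatDp7 cortex, 1278 and 1311 in PatDp7 cerebellum and 1607 and 3469 in MatDp7 cerebellum, against 895 and 782 in PatDp7 and 1073 and 783 in MatDp7 brain at 15.5 dpc. For both genes all neonatal arrays were above all 15.5 dpc arrays, and the differences were 1.26 ± 0.242 for Mt1 (adjusted p = 0.0164) and 0.99 ± 0.222 for Mt2 (adjusted p = 0.0254). The Mt1 probe set is of a type designed against sequence that several transcripts share, so signal of close relatives cannot be set apart, and the second Mt1 probe set lay below the filter. The sulfotransferase Sult1a1 (0.36), the glutamine synthetase gene Glul (0.38), the lipase inhibitor Angptl4 (0.05) and the triglyceride lipase Pnpla2 (-0.04) were not called.

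Cdkn1a, which encodes the cell-cycle inhibitor p21, had 857 and 948 in PatDp7 cortex, 729 and 791 in MatDp7 cortex, 1035 and 1393 in PatDp7 cerebellum and 1631 and 1020 in MatDp7 cerebellum, against 639 and 665 in PatDp7 and 703 and 613 in MatDp7 brain at 15.5 dpc. The groups did not overlap, and the difference was 0.60 ± 0.155 (adjusted p = 0.0404). On the second tested Cdkn1a probe set the ages overlapped, with 239 to 1173 on neonatal arrays, against 202 to 288 at 15.5 dpc. Txnip, an inhibitor of thioredoxin and of glucose uptake, had 321 to 783 (median 562) on the neonatal arrays, against 679, 826, 856 and 1107 at 15.5 dpc, a difference of -0.64 ± 0.199 that was not called (adjusted p = 0.0680). Tiparp, a poly(ADP-ribose) polymerase, was lower on every neonatal array (537 to 696) than on any 15.5 dpc array (728 to 885), with a difference of -0.39 (adjusted p = 0.0573), but its 2 other tested probe sets went the other way, at 0.66 and 0.47. Probe sets of the growth-arrest gene Gadd45b also disagreed, with 0.55 for the tested set and -0.46 and -0.38 for those below the filter. Ddit4, an inhibitor of mTOR signalling, differed by -0.05.

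Without overlap between the 8 neonatal and 4 embryonic arrays, 5 of 24 members (Klf9, Pik3r1, Cdkn1a, Mt1 and Mt2) were higher, where 5.16% of all tested genes were, and Tiparp alone was lower, where 9.91% were. Within replicate numbers, 17 of 24 members were higher in neonatal tissue in both numbers, 2 were lower in both and 5 had opposite signs, with medians of 0.346 for number 1 and 0.209 for number 2. The shares of all tested genes by this rule were not computed, so these counts do not set the members against other genes. Cortex and cerebellum were each set against the same 4 arrays of 15.5 dpc, so their values are not independent. In cortex, Klf9 (2.96) and Pik3r1 (1.02) were called higher, as were 1.7% of all tested genes, with 3.95% called lower. In cerebellum, Klf9 (2.80), Mt1 (1.44), Cdkn1a (0.88), Pik3r1 (0.79) and Klf15 (0.75) were called, where 2.72% were called higher and 4.71% lower. Fits that left out 1 array follow for the members only. The shares of all tested genes in those fits are not given, so their counts do not set the members against other genes. Leaving out 1 array of 15.5 dpc lowered the 6 calls of the pooled comparison to 2 without PatDp7 replicate 1, 0 without PatDp7 replicate 2, 2 without MatDp7 replicate 1 and 1 without MatDp7 replicate 2, while leaving out any neonatal array gave 4 to 6. The 5 calls in cerebellum became 1 or 2 without any of its own 4 arrays and 0 or 1 without any 15.5 dpc array, and the 2 calls in cortex became 0 without either MatDp7 cortex array, 15.5 dpc PatDp7 replicate 2 or 15.5 dpc MatDp7 replicate 1, and 1 without PatDp7 cortex replicate 1, 15.5 dpc PatDp7 replicate 1 or 15.5 dpc MatDp7 replicate 2.

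**Figure D1:**
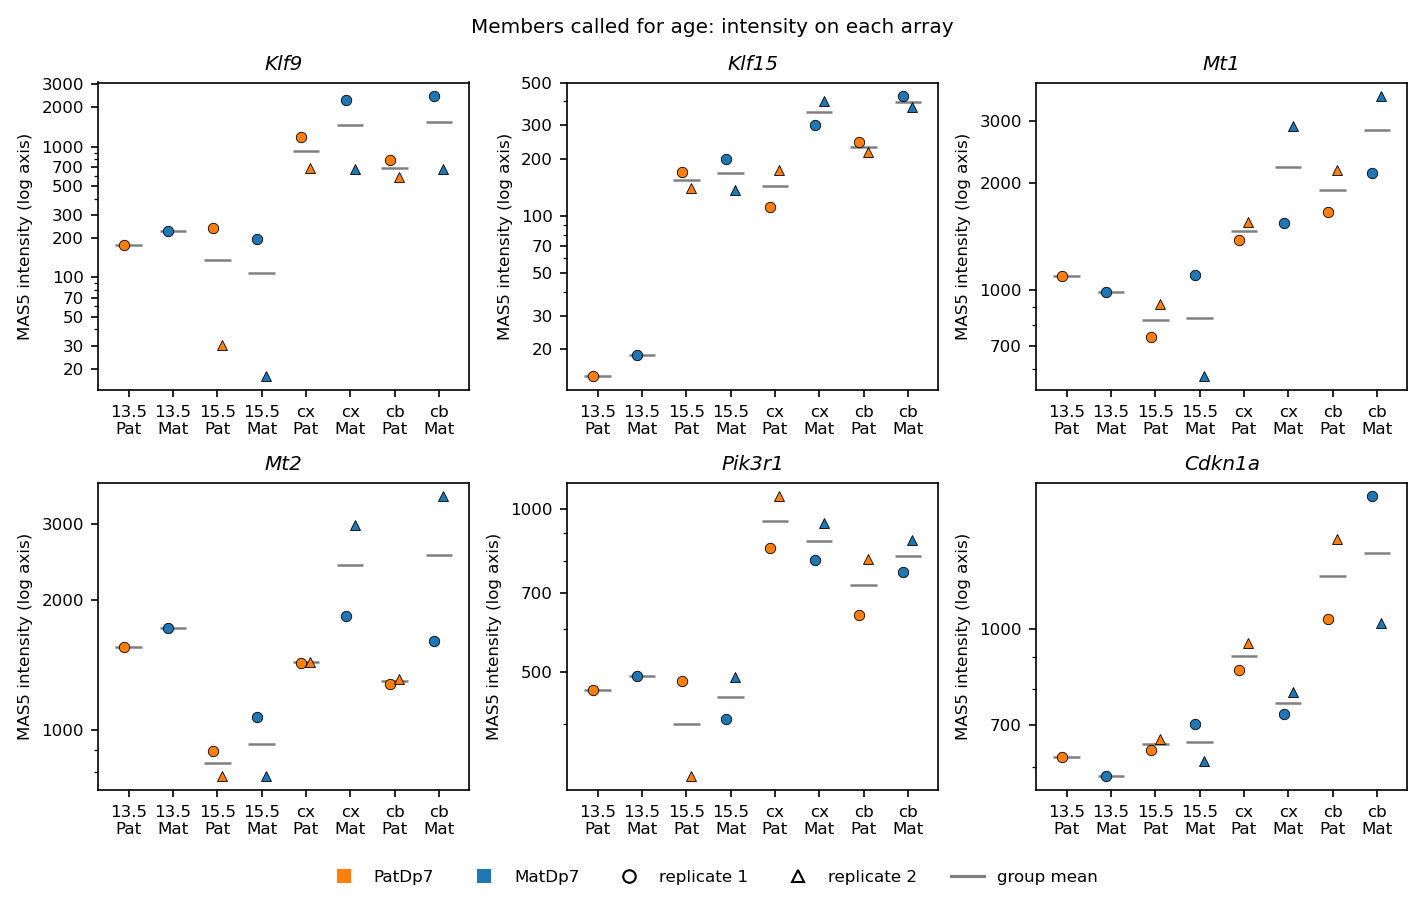
MAS5 intensity on a logarithmic axis for the 6 members called for age, with 1 point per array, circles for replicate 1, triangles for replicate 2, orange for PatDp7, blue for MatDp7 and grey bars for group means, in brain at 13.5 and 15.5 dpc and in neonatal cortex (cx) and cerebellum (cb). All neonatal arrays stand above the 15.5 dpc arrays for every gene but Klf15, whose PatDp7 cortex arrays read 112, below the 15.5 dpc arrays, and 175, among them.

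**Figure D2:**
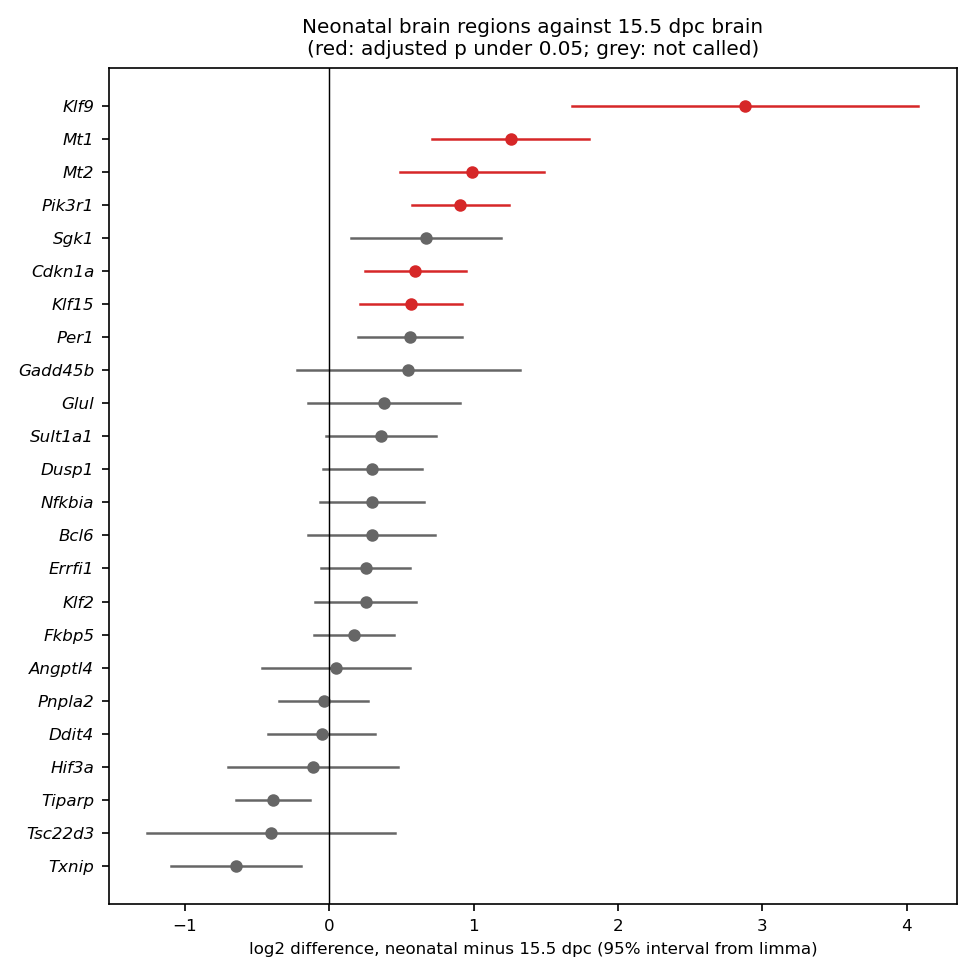
Difference between neonatal regions and 15.5 dpc brain for the 24 tested members, as log2 values with 95% intervals from limma. Red marks the 6 members with an adjusted p under 0.05, from Klf15 at 0.57 to Klf9 at 2.88, and grey marks the others.

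Markers of particular cell types also differed between the ages. Of 6 tested astrocyte markers, Aqp4 (2.72, adjusted p = 0.0110) and Gfap (1.11, adjusted p = 0.0223) rose, and the summed intensity of the 8 astrocyte markers was 7561 to 13551 on neonatal arrays, against 7613 to 8313 at 15.5 dpc. The erythroid gene Alas2 fell by 1.79 (adjusted p = 0.0076), as did the meningeal fibroblast genes Col3a1, Dcn and Lum, 3 of 8 tested meningeal markers. Of 6 tested progenitor markers, Nes (-1.19, adjusted p = 0.0182) and Vim (-0.79, adjusted p = 0.0116) fell. Of 6 tested neuron markers, Syt1 (0.82, adjusted p = 0.0224) and Rbfox3 (1.45, adjusted p = 0.0474) rose, and the summed intensity of the neuron list was 22565 to 28928 on neonatal arrays, against 18582 to 20607 at 15.5 dpc. The neuron sums did not overlap between the ages, and the astrocyte sums did. Of 6 tested markers of the oligodendrocyte lineage, Olig1 (1.01) and Sox10 (0.54) rose. The choroid plexus markers Folr1 (-0.93) and Aqp1 (-0.89), 2 of 3 tested, and the microglial marker Tyrobp (-0.62), 1 of 6, fell. Not every marker followed the called ones of its list. The astrocyte marker Gja1 read 1483 to 3775 on neonatal arrays, against 2726 to 3922 at 15.5 dpc. The progenitor marker Hes5 read 250 to 979, against 269 to 474, and the microglial marker Cx3cr1 87.8 to 1762, against 59.7 to 374. Meningeal Ptgds read 6149 to 10521 on all neonatal arrays but 1 (202), against 5077 to 6956. The part of these cell types in the members' differences was not tested.

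Genes of the receptor's own pathway were followed as separate lists. The brightest Nr3c1 probe set differed by 1.08 ± 0.490 between neonatal and 15.5 dpc tissue (adjusted p = 0.167), with 1468 and 336 in PatDp7 cortex and 1307 and 339 in MatDp7 cerebellum, against 271 to 311 at 15.5 dpc, so that on this set the 2 arrays of a group lay further apart than the ages. Another Nr3c1 set read 182 to 239 on neonatal arrays, against 139 to 182 at 15.5 dpc. The remaining set read 157 to 600, against 112 to 175. Of 9 tested chaperones, Fkbp4 (-0.54, adjusted p = 0.0319) and Bag1 (-0.85, adjusted p = 0.0306), a co-chaperone of Hsp70, fell and none rose. Of 9 tested coregulators, Ppargc1a, a coactivator of energy metabolism, rose by 1.59 (adjusted p = 0.0460) and none fell. Among 8 tested immediate early genes, which respond to neuronal activity and handling stress, Fos (1.54, adjusted p = 0.0130) and Egr1 (0.93, adjusted p = 0.0259) rose and Btg2 (-0.56, adjusted p = 0.0287) fell. No call was made among 3 tested receptor and steroid-enzyme genes, 3 stress-axis genes and 3 genes that glucocorticoids repress.

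**Figure D3:**
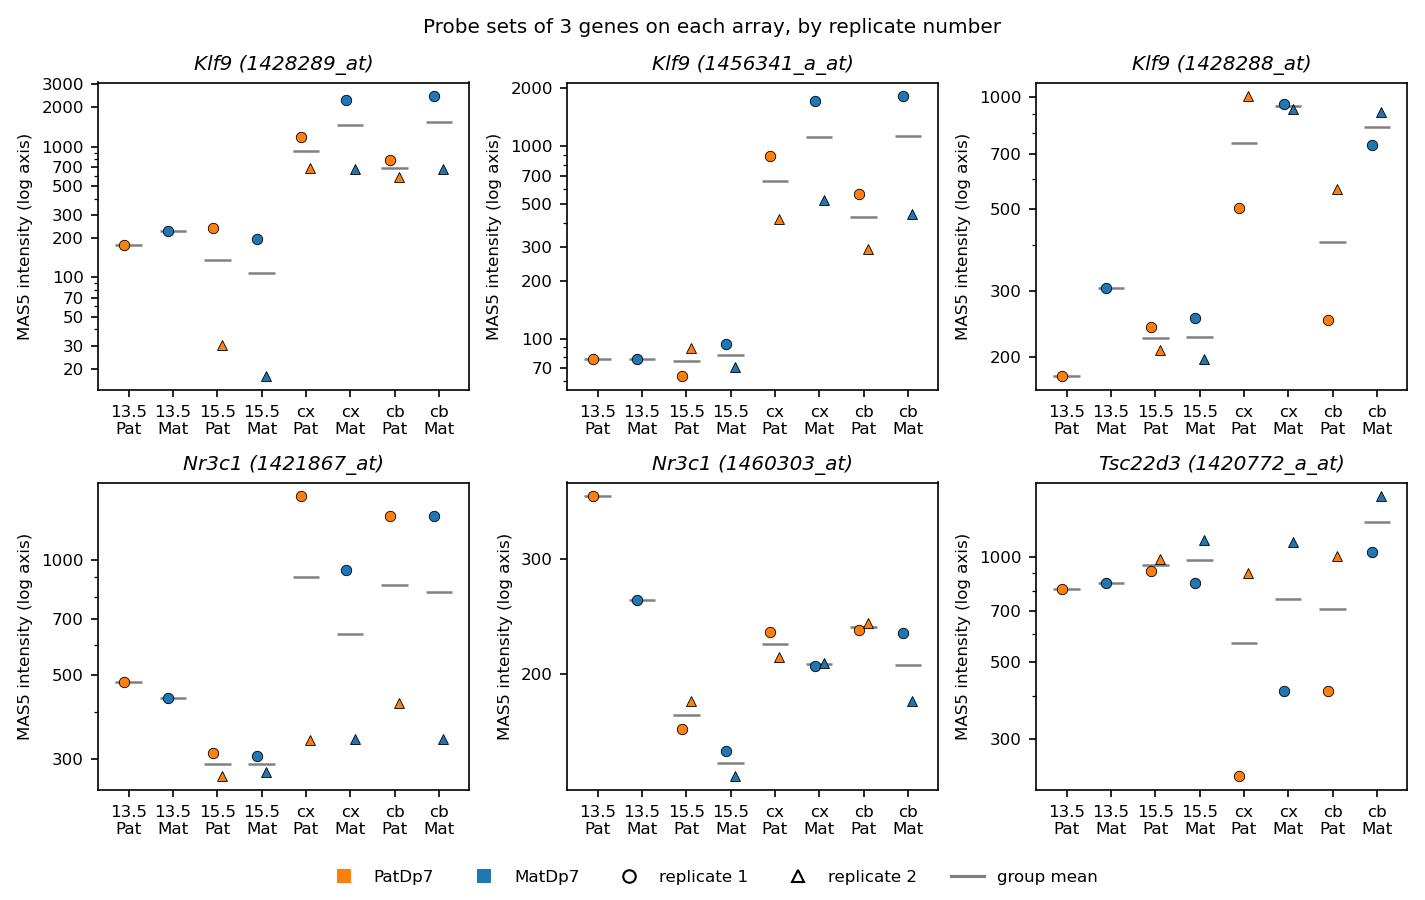
MAS5 intensity on a logarithmic axis for 3 probe sets of Klf9, 2 of Nr3c1 and 1 of Tsc22d3, drawn as in the plot of called members. Circles (replicate 1) and triangles (replicate 2) separate within neonatal groups for 2 of the Klf9 sets, for 1 of the Nr3c1 sets (939 to 1468 against 336 to 420) and for Tsc22d3, and they lie close together for the Nr3c1 set with 182 to 239.

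Between 13.5 and 15.5 dpc the only call among the 24 was Klf15, higher at 15.5 dpc by 1.63 ± 0.220 (adjusted p = 0.0066), where 2.44% of all tested genes were called higher and 3.36% lower. Both 13.5 dpc values of Klf15 were under the added constant, so the size of its difference depends on that constant: it was 2.13 with 0.5 times the constant and 0.72 with 4 times the constant, and was called in both. The members' median was -0.143, against -0.0178 over all tested genes. Angptl4 read 259 and 508 in PatDp7 and 247 and 305 in MatDp7 brain at 15.5 dpc, against 810 and 729 at 13.5 dpc, and its difference of -1.15 ± 0.322 was not called (adjusted p = 0.0771). Mt2 was 782 to 1073 at 15.5 dpc, against 1559 and 1724 at 13.5 dpc (-0.87, adjusted p = 0.166). This comparison shares its 15.5 dpc arrays with the neonatal one, and the single 13.5 dpc array of each duplication was assumed to vary like the other groups. Both 13.5 dpc arrays had Xist (4374 and 5760) and Uty (23.5 and 34.9) near the arrays numbered 2, while 15.5 dpc brain holds both kinds, and the part of this in the differences was not tested.

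Neonatal cortex was then set against neonatal cerebellum. Of 24 members 0 were called, where 0.221% of all tested genes passed the threshold as higher in cortex and 0.172% as lower. At an unadjusted p under 0.05 Bcl6 (0.51) was higher, as were 4.07% of all tested genes, and Cdkn1a (-0.56) was lower, as were 3.73%. The median difference was 0.0159, against 0.0193 over all tested genes. For the brightest Cdkn1a probe set the cerebellar arrays ran from 1020 to 1631 and the cortical arrays from 729 to 948, without overlap, and the adjusted p was 0.430. How many of all tested genes had no overlap between the regions was not computed. The second tested set overlapped, with 419 to 1173 in cerebellum and 239 to 867 in cortex.

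The study's main contrast, between the parental duplications, gave no call for any member in any tissue. In simulated data the fit recovered 14% of planted log2 changes of 0.5 and 70% of those of 1 for the tissue mean. For cortex alone it recovered 0% and 20%, so differences of such sizes can go uncalled. Over the mean of the 3 replicated tissues 0 of 24 were called, where 0.0368% of all tested genes were called higher and 0.0245% lower in PatDp7. The unadjusted p was under 0.05 for 5 members, all lower in PatDp7: Klf15 (-0.60 ± 0.147), Klf2 (-0.58 ± 0.146), Mt2 (-0.55 ± 0.209), Sult1a1 (-0.42 ± 0.160) and Dusp1 (-0.38 ± 0.143), where 0.772% of all tested genes were lower by that rule and 0.515% higher. Each had an adjusted p of 1. The members' median was -0.203, against -0.0007 over all tested genes.

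Tissue by tissue the values were as follows. The members' median difference was -0.239 in cortex (0.0169 over all tested genes), -0.323 in cerebellum (-0.0204) and -0.0215 at 15.5 dpc (0.0065). In cortex 0 members were called, where 0.0123% of all tested genes were called higher and 0% lower. In cerebellum 0 were called, where 0.0245% were called higher and 0.0123% lower, and at 15.5 dpc 0 were called, where 0.0123% were called higher and 0% lower. Unadjusted p-values under 0.05, all in the direction of lower in PatDp7, were given to 3 members in cortex, 6 in cerebellum and 0 at 15.5 dpc, where 0.981%, 0.503% and 0.221% of all tested genes were lower by that rule and 0.748%, 0.245% and 0.245% were higher. Whether the parental difference itself varied between the 3 tissues was tested with an F-test, which called 0 of 24 members and 0% of all tested genes, and gave 1 member and 0.343% of all tested genes an unadjusted p under 0.05.

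Klf15 was lower in PatDp7 in each same-numbered neonatal pair, with log2 differences of -1.10 and -0.99 in cortex and -0.68 and -0.65 in cerebellum. At 15.5 dpc the pairs differed by -0.18 and 0.01. The difference was -1.05 ± 0.255 in cortex and -0.67 ± 0.255 in cerebellum. Klf2, a Krüppel-like factor of endothelium and leukocytes, read 296 and 183 in PatDp7 cortex, against 317 and 275 in MatDp7 cortex, and 151 and 154 in PatDp7 cerebellum, against 451 and 364 in MatDp7 cerebellum. Its cerebellar difference of -1.16 ± 0.253 had the smallest adjusted p of the 24 members there, at 0.861.

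Mt2 differed by -0.35 and -1.03 in the cortical pairs and by -0.32 and -1.37 in the cerebellar pairs, so that the second pair gave the larger value in both regions. Dusp1 read 662 and 551 in PatDp7 cortex, against 1067 and 831 in MatDp7 cortex, and 743 and 518 in PatDp7 cerebellum, against 1175 and 950 in MatDp7 cerebellum. Its neonatal groups did not overlap, a rule for which the share of all tested genes was not computed. At 15.5 dpc the first Dusp1 pair differed by 0.43 and the second by -0.04. Sult1a1, a chromosome 7 gene, read 345 and 335 in PatDp7 cortex, against 400 and 473 in MatDp7 cortex, and 204 and 362 in PatDp7 cerebellum, against 438 and 691 in MatDp7 cerebellum. The other chromosome 7 members, Hif3a and Pnpla2, had mean parental differences smaller than their standard errors of 0.245 and 0.129.

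The brightest Fkbp5 probe set ran in opposite directions in the neonatal regions, higher in PatDp7 cortex (1303 and 1184, against 972 and 973 in MatDp7) and lower in PatDp7 cerebellum (741 and 952, against 1327 and 1380 in MatDp7). The differences were 0.34 ± 0.201 and -0.66 ± 0.201. The F-test over tissues gave it an unadjusted p of 0.0196 and an adjusted p of 1. The second Fkbp5 probe set did not show the reversal, with -0.04 ± 0.251 in cortex and -0.47 ± 0.251 in cerebellum.

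PatDp7 was lower in all 4 same-numbered neonatal pairs for 11 of 24 members, where 9.83% of all tested genes were, and higher in all 4 for 0, where 8.63% were. The 11 were Klf15, Klf2, Sgk1, Tsc22d3, Dusp1, Nfkbia, Ddit4, Glul, Sult1a1, Mt1 and Mt2. Other tested probe sets did not all follow, and 1 of Tsc22d3 was lower in 1 of 4 pairs and 1 of Nfkbia in 2 of 4. Of these, Sgk1, Ddit4, Glul, Sult1a1 and Mt2 were also lower in both 15.5 dpc pairs, although the second pair there was nearly level for Mt2 and for Sult1a1 (-0.01). That made 5 of 24 in 6 of 6 pairs, where 2.94% of all tested genes were. By region, 12 members were lower in both cortical pairs (26.1% of all tested genes), 20 in both cerebellar pairs (29.9%) and 6 in both 15.5 dpc pairs (22.4%). In the single 13.5 dpc pair 14 of 24 were lower, where 58.2% of all tested genes were. Genes of 1 array share its scaling and its tissue, so the members are not independent of each other.

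**Figure D4:**
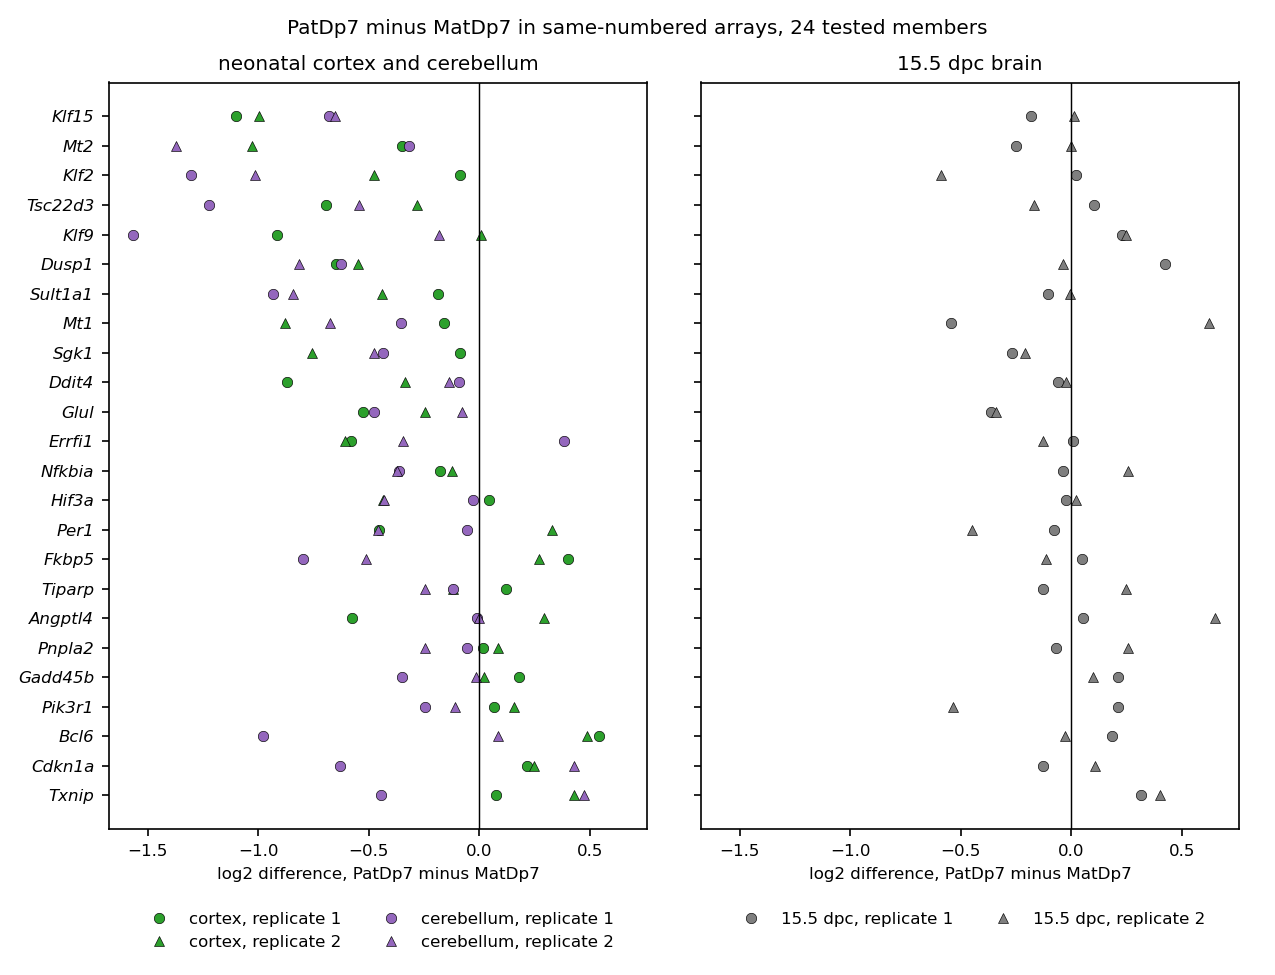
PatDp7 minus MatDp7 in each pair of same-numbered arrays for the 24 tested members, as log2 differences, with cortex (green) and cerebellum (purple) on the left, 15.5 dpc brain (grey) on the right, circles for replicate 1 and triangles for replicate 2. The neonatal points lie left of 0 in all 4 pairs for 11 members, and the 15.5 dpc points scatter about 0.

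One array stood apart beside this result. The summed intensity of 8 meningeal fibroblast and barrier markers was 3461 on the PatDp7 cerebellum array numbered 1, against 13492 to 19721 on the other neonatal arrays, and Ptgds, an abundant meningeal enzyme, read 202 there, against 10171 on the second PatDp7 cerebellum array and 8985 and 10297 in MatDp7 cerebellum. Ptgds was the largest part of the sum on every other neonatal array (6149 to 10521), so the sum leans on 1 transcript. Col1a1 (463) and Dcn (868) were not lowest on that array, since PatDp7 cortex replicate 2 read 293 and 717. Col1a2, Col3a1, Lum, Foxc1 and Slc6a13 were lower there than on any other neonatal array. Without that pair, 12 of 24 members were lower in the 3 other neonatal pairs (16.0% of all tested genes), and in the second cerebellar pair alone 21 of 24 were lower (56.4%). Over all neonatal arrays the meningeal sum was 3461 to 16570 in PatDp7, against 15872 to 19721 in MatDp7. It was lower in PatDp7 in each same-numbered neonatal pair. In cortex the sums were 13492 against 19260 and 14393 against 15872, and in cerebellum 3461 against 18279 and 16570 against 19721. The meningeal markers' median parental difference was -0.88 in cerebellum, -0.34 in cortex and -0.34 over the 3 tissues, with 0 of 8 called. In 15.5 dpc brain this median had the opposite sign, at 0.32. The meningeal sums there were 19181 and 18374 in PatDp7, against 15470 and 14989 in MatDp7. The sum of 13 immediate early genes was 2709 to 4114 in neonatal PatDp7, against 3593 to 4930 in neonatal MatDp7. The part of meninges and of immediate early response in the members' differences was not tested. No gene of the receptor, chaperone, coregulator, stress-axis or immediate early lists was called for parental origin.

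Below the filter, several members nonetheless had readable values. The 4 shown here were chosen after their values were seen. Gadd45g, a growth-arrest gene of newly born neurons, had 48.1 to 96.4 on the 8 neonatal arrays, against 231, 259, 328 and 390 at 15.5 dpc and 244 and 294 at 13.5 dpc. In the fit on all probe sets its age difference was -1.48 (adjusted p = 0.0048). Zbtb16, a zinc-finger repressor, had 130 to 479 on the neonatal arrays, against 12.9 to 81.7 at 15.5 dpc, with a difference of 1.83 in that fit (adjusted p = 0.0198), and Irs2, an insulin receptor substrate, differed by 0.93 (adjusted p = 0.0576).

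The bZIP transcription factors Cebpd and Cebpb were lower in PatDp7 in all 4 neonatal pairs by their brightest probe sets. A second Cebpb set was lower in all 4 as well, and a second Cebpd set in only 1 of 4. Cebpd read 88.0 and 120 in PatDp7 cortex, against 235 and 295 in MatDp7 cortex, and 41.1 and 130 in PatDp7 cerebellum, against 272 and 256 in MatDp7 cerebellum. Cebpb read 9.47 and 73.9 in PatDp7 cortex, against 126 and 233 in MatDp7 cortex, and 27.1 and 163 in PatDp7 cerebellum, against 175 and 279 in MatDp7 cerebellum. The 4 arrays of each duplication did not overlap for Cebpd and did for Cebpb, and in the fit on all probe sets neither was called in cortex (-1.02 and -1.36) or cerebellum (-1.28 and -1.07), with adjusted p of 1. Map3k6 and Lcn2 were also lower in all 4 pairs, and Pdk4, Plin4, Zbtb16, Irs2 and Gadd45g were not. The share of all genes below the filter that were lower in all 4 pairs was not computed, nor was the share without overlap between the duplications.

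**Figure D5:**
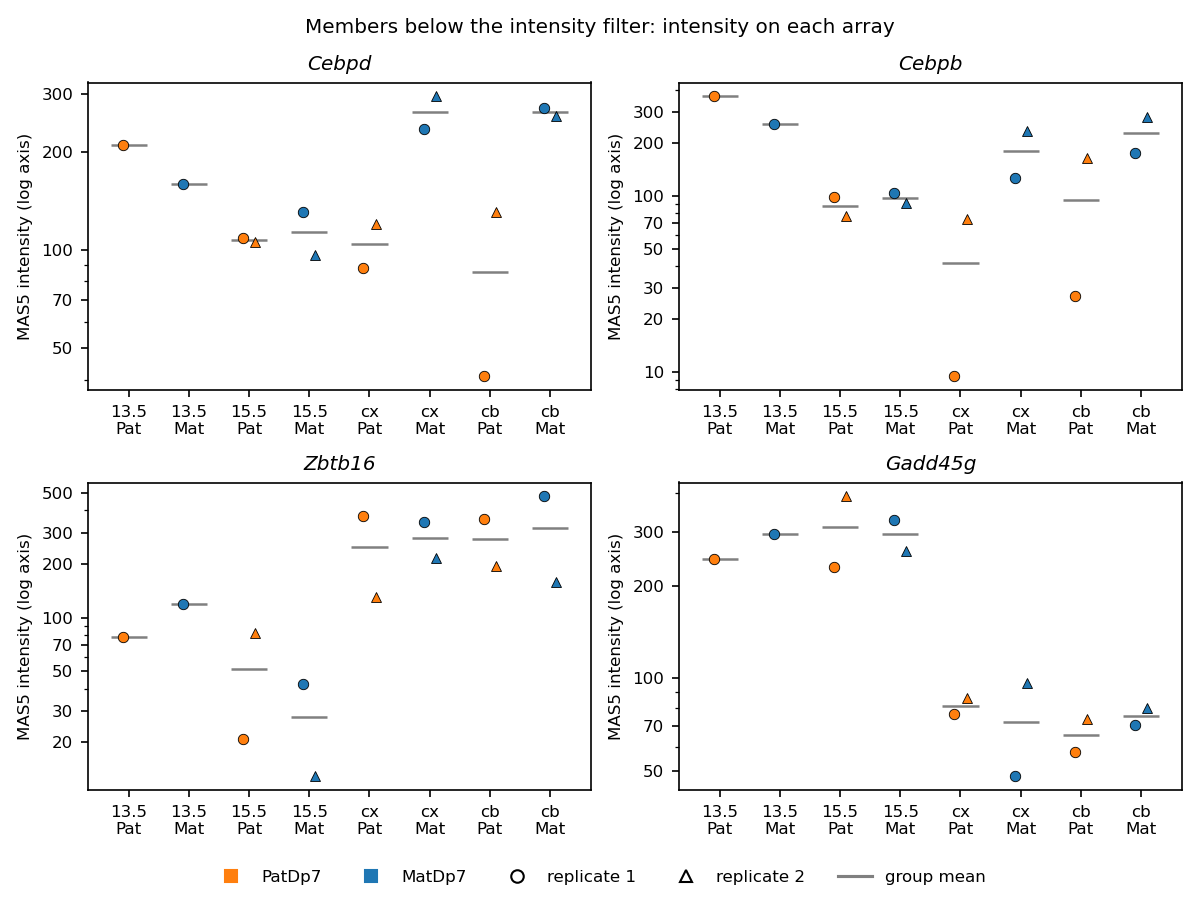
MAS5 intensity on a logarithmic axis for 4 members below the intensity filter, drawn as in the plot of called members. Gadd45g lies lower on all neonatal arrays than on embryonic ones, Zbtb16 lies higher, and for the Cebpd probe set shown the PatDp7 points (41.1 to 130 in neonates) lie below the MatDp7 points (235 to 295).

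Arrays numbered 1 and 2 were also compared directly, as values without a test. In all 4 neonatal groups replicate 1 exceeded replicate 2 for 5 of 24 members, where 25% of all tested genes did, and fell below it for 8 of 24, where 28.9% did. The mean difference of replicate 1 minus replicate 2 over the neonatal groups was 1.14 for Klf9, 1.09 for Gadd45b and 0.77 for Hif3a, and it was -1.19 for Tsc22d3, -0.70 for Glul, -0.69 for Sgk1 and -0.53 for Mt1. At 15.5 dpc the same difference was 1.83 for Klf9, 0.24 for Gadd45b and -0.15 for Hif3a. The direction depended on the probe set, since another Klf9 set gave -0.55 in neonates and the other Gadd45b sets, below the filter, gave -0.38 and -0.20. The parental contrasts hold 1 array of each number per group, so the numbers are balanced in them.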

How the data were processed

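RNA from 14 brain samples was hybridised to 1 Affymetrix 430A array each. Per the submitters' processing notes the deposited intensity values came from MAS5, with no version given in the sources used here, and their 2% trimmed mean was about 500.1 on each array, so the authors had scaled them. The number of arrays limits the precision. From the deposited intensity, log2(intensity + 52.0) was computed, where the constant is the 20th percentile of the values of all arrays. Probe sets with a mean under the 40th percentile (7.71) were left out, and 13576 were fitted with limma 3.58.1 in R 4.3.3, as 8 group means with an intensity trend and 6 residual degrees of freedom. Symbols came from the platform annotation, and 20380 of 22626 probe sets had 1 gene, 691 several and 1555 none. The members, the pathway and marker lists and the tests were chosen with earlier results of these data known. Values were named for every called member, for 7 fixed genes and for up to 4 more per role with the smallest p in the age comparison. Alternatives changed the constant, filter, scaling, variance trend, probe set choice and replicate block, or left out 1 array. The fit was tested on simulated data. Sequences came from RefSeq's GRCm38.p6 promoter table, and figures were drawn with matplotlib 3.10.9.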

Additional observations from a re-analysis of the deposited data

How the results depend on the processing

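No parental call was made for a member under any alternative, and no gene called for age changed sign. Called members in neonatal regions minus 15.5 dpc brain were 15 (13 higher, 2 lower, where 18.6% and 23.1% of all tested genes were) with the neonatal replicate number as a block and 18 with the block and no filter, while leaving out 1 array gave 0 to 6. In cortex minus 15.5 dpc they were 4 with quantile normalization, 11 with the block (9 higher, 2 lower, where 17% and 19.7% of all tested genes were) and 15 with the block and no filter (0 to 3 leaving out 1 array), and in cerebellum minus 15.5 dpc 3 with median centring, 12 with the block (10 higher, 2 lower, where 15.1% and 19.6% were) and 13 with the block and no filter (0 to 5 leaving out 1 array). Between 15.5 and 13.5 dpc they were 0 with the filter at the median, which removed Klf15, and 5 with either block (1 higher and 4 lower with the filter, where 12% and 10.2% were; 1 to 2 leaving out 1 array). With the block, calls over all probe sets were 5831 in place of 1530 for neonatal minus 15.5 dpc. Shares over all tested genes are given here for the block with the filter only. The other counts therefore do not set the members against other genes, and fits with no filter also include the members below it. The labels do not say what same-numbered arrays share. Deviations of same-numbered arrays correlated at 0.710 to 0.816 between neonatal groups and at -0.0922 to 0.264 in pairs that include 15.5 dpc groups, and the block changed no parental call.

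Leaving out 1 array ended the call for neonatal minus 15.5 dpc in 2 of 12 fits for Klf9 and Pik3r1, 3 for Mt1, 4 for Mt2, 10 for Cdkn1a and 11 for Klf15. That Klf15 call also ended with 0.5 times the constant, no filter, quantile normalization and median centring (adjusted p 0.0543 to 0.103), and that of Cdkn1a with no filter (0.0502) and median centring (0.0811). In cerebellum minus 15.5 dpc, no filter, quantile normalization and median centring ended the Klf15 call, and median centring that of Pik3r1. The Klf15 call between 15.5 and 13.5 dpc held in all 12. The members' median moved to -0.143 in cortex (PatDp7 minus MatDp7) with 4 times the constant, to 0.213 in cortex minus 15.5 dpc with median centring, and to -0.0458 with quantile normalization and -0.0277 with median centring in 15.5 minus 13.5 dpc. Leaving out 1 array, the parental medians ran from -0.239 to -0.103 in cortex, from -0.409 to -0.292 in cerebellum and from -0.0630 to 0.0734 at 15.5 dpc, and the median of 15.5 minus 13.5 dpc from -0.267 to -0.0524. The cause of these shifts was not tested.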
